A study of Mus musculus with 3 samples.

Results

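Genes of the ubiquitin-proteasome system are described here in cells of the mouse peritoneum: type 2 innate lymphoid cells, mature mast cells and their progenitors. All genes of the platform's gene table were taken whose symbol begins with Psma to Psmg plus a digit, or with Ube2, leaving out pseudogene symbols containing -ps. The table names 85 such genes, 50 of the proteasome and 35 of the Ube2 family. Of these, 82 had a probe set naming 1 gene and were measured, 49 proteasome and 33 Ube2 genes, among 22180 genes in all. Psma4, Ube2e1 and Ube2g2 had only probe sets shared with other genes and carry no values. Psmc3ip and Psme3ip1 match by name but do not encode proteasome subunits, and Ube2cbp, which encodes a protein that binds conjugating enzymes, is not a conjugating enzyme. These 3 were kept in the counts, with Psmc3ip tied at a log2 level of 7.38 and Psme3ip1 at 6.48 on all arrays, and Ube2cbp at 6.46 in both progenitors and lymphoid cells and 6.32 in mature cells.

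Each population is represented by 1 array. The cells came from a pool of 5 naive female BALB/c mice, aged 10 to 11 weeks, and 100 cells of each population were lysed after repeated sorting. No transgene, deletion or treatment is named for any group. All populations were lineage negative or low and expressed ST2, a receptor for the alarm cytokine IL-33. The mast cell gates took cells with high c-kit and with FcεRI, which binds IgE, and without CD127 or CD25. Integrin β7 was high and side scatter low in the progenitor gate, while the mature gate took high side scatter with integrin β7 absent to intermediate. The innate lymphoid cells, lymphocytes without antigen receptors that respond to alarm cytokines, had CD127 and CD25, little or no c-kit, and neither FcεRI nor CD16/32. Since there is 1 array per population, no value has an error and no difference was tested. In RNA from sorted cells, fewer cells with a transcript and less of it per cell cannot be told apart.

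The proteasome degrades proteins tagged with ubiquitin. Its barrel-shaped core is built of α rings, which form the gate, and β rings, which carry the cutting sites. A regulatory particle recognises tagged proteins, and its ring of ATPases unfolds them and feeds them into the core. Ubiquitin is activated by one enzyme, passed to a conjugating enzyme of the Ube2 family and then, with a ligase, to the target. In immune cells, interferon induces replacement β subunits and an activator cap, which alter the peptides made for presentation by MHC class I.

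Levels are the authors' log2 values, so a difference of 1 is 2-fold and a difference of 2 is 4-fold. A gene was counted where 2 populations were that far apart and the brighter level exceeded the median of its array, which was 6.32 in progenitors, 6.30 in mature cells and 6.30 in lymphoid cells. Where the dimmer level lay under its own array's median, the fold is computed against that median and written as a lower bound. Where 3 levels are given without names, the order is progenitors, mature mast cells, innate lymphoid cells. Brightness depends on the probes, so levels are compared within a gene and not between genes. Of the 82 genes, 47 were above the median on all arrays and 26 below it on all. All 3 levels were exactly equal for 26 of them (31.7%), against 47.9% of all genes. Such ties can arise when few arrays are summarised together and do not show equal transcript amounts.

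As a check of the labels, 7 of 8 mast cell marker genes were above a log2 level of 8 in mature mast cells, 4 in progenitors and 0 in innate lymphoid cells. In progenitors the bright markers were the granule protease genes Cpa3 (12.30), Cma1 (10.42), Mcpt4 (9.73) and Tpsb2 (8.94). The genes of the receptors used for sorting were dim there. Kit, which encodes c-kit, was at 6.89, 10.29 and 6.63, so progenitors lay nearer to lymphoid cells than to mature cells. Fcer1a, the IgE-binding chain of FcεRI, was at 5.37, 8.87 and 5.05, and Ms4a2, its β chain, at 6.25, 8.13 and 5.92. Both were under the array median in progenitors. These RNA levels thus do not separate progenitors from lymphoid cells as the protein gates do, and whether the members that were low in progenitors share the reason was not tested. Of 7 innate lymphoid markers, 3 were above 8 in the lymphoid cells and 0 in either mast cell population. The transcription factor genes of that list, Gata3 and Rora, did not separate the populations, with Gata3 at 6.76, 6.76 and 6.82 and Rora at 6.64 on all arrays. Of 23 markers of other peritoneal cells, 22 were measured and 0 were above 8. Their sums of log2 levels were 141.9 in progenitors, 141.3 in mature cells and 142.1 in lymphoid cells. On each array 15 of the 22 were above the median, and 12 were tied on all arrays. The cut at 8 therefore does not show that such cells were absent.

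In 6 of the 82 genes (7.32%) the level differed at least 4-fold between some pair of populations, against 1.72% of all genes. With probe sets of a gene averaged, 4 of the 82 did (4.88%), against 1.54%. Members were more often bright, with a mean level of 8 or more in 11.0% against 3.12% of all genes. Differences past 4-fold were more frequent among the 693 genes that bright. Between progenitors and mature cells, 8.23% of them passed 4-fold with progenitors dimmer and 0.722% with progenitors brighter. Against lymphoid cells these shares were 15.7% and 3.32%. Between mature and lymphoid cells, 4.04% passed 4-fold with mature cells dimmer and 3.03% with mature cells brighter. The mean includes the compared levels, so these shares do not set brightness apart from the differences. By the brightest probe set of each gene, Psmc2, Ube2k and Ube2l3 were lowest in progenitors. Psmc1 and Ube2d2a were highest in mature mast cells, and Ube2j1 was highest in innate lymphoid cells. The dimmer probe set of Psmc2 was equally low in both mast cell populations. Of the dimmer probe sets of Ube2l3, one was tied on all arrays and the other was highest in progenitors, as described below. Of the 82 genes, 67 (81.7%) had all levels within 2-fold, a smaller share than the 95.5% of all genes. Thus most members varied little, but fewer of them than of genes at large.

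**Figure D1:**
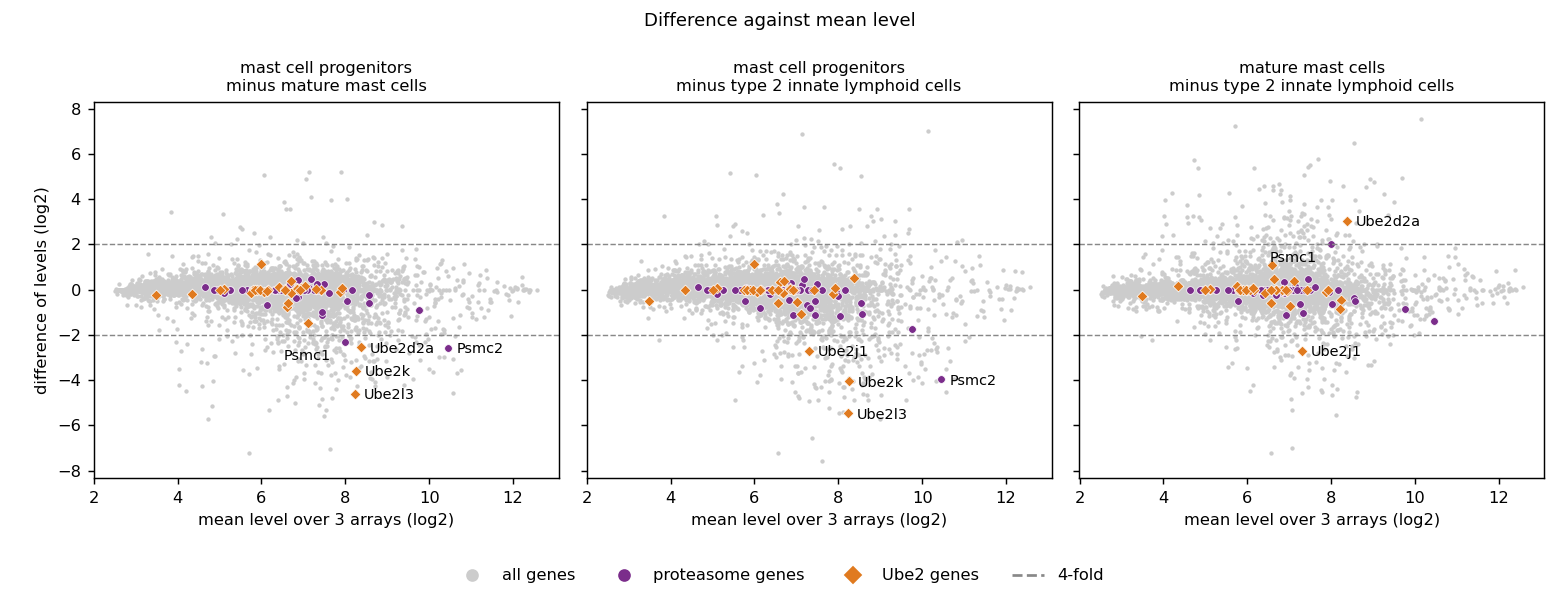
Difference of log2 levels (vertical axis) against the mean log2 level over the arrays (horizontal axis) for each pair of populations. Grey points are all 22180 genes, circles are proteasome genes and diamonds are Ube2 genes, and dashed lines mark 4-fold. The named genes are those past 4-fold, and in the panels that subtract from progenitors all of them lie below the lower line.

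The 6 genes past 4-fold have 5 entries in RefSeq's promoter table (GRCm38.p6), and the 250 bases before each start are shown because these genes carry the differences. They are given 5′ to 3′ on the gene's strand, and where a gene has several starts the most upstream one was taken. Capitals mark matches on either strand to the antioxidant response element TGACNNNGC, to CCAAT, to the ETS factor site CCGGAAG and to the unfolded protein response element TGACGTGG. The last 2 motifs were added after the sequences had been seen.
Psmc2, chr5:21785025-21785274, plus strand: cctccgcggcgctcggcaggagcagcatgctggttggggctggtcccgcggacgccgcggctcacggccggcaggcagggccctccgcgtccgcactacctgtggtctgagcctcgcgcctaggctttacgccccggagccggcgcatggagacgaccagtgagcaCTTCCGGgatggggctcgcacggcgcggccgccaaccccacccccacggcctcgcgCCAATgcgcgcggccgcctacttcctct
Psmc1, chr12:100109952-100110201, plus strand: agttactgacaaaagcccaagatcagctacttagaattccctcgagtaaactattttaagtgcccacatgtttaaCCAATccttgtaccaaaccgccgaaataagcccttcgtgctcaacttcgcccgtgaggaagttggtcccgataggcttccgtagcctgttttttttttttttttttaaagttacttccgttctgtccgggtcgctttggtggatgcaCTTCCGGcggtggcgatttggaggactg
Ube2k, chr5:65536995-65537244, plus strand: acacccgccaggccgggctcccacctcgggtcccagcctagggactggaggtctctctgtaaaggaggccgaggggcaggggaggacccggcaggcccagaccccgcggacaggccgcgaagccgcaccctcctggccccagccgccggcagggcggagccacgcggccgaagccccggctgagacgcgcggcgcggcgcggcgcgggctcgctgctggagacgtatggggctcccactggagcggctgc
Ube2l3, chr16:17201493-17201742, minus strand: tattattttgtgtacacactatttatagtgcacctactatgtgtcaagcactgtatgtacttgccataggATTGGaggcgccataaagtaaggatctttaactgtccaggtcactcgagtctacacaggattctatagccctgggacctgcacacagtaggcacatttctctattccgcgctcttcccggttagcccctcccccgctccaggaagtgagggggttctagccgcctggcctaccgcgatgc
Ube2j1, chr4:33031130-33031379, plus strand: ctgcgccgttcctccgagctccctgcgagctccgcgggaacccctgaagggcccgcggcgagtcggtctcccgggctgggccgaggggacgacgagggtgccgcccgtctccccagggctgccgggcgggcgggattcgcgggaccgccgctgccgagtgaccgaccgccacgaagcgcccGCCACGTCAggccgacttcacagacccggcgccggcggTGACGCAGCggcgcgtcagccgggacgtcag
The proximal sequence of Psmc2 is 74.4% G and C, that of Ube2k 76.8% and that of Ube2j1 77.2%, whereas Psmc1 has 46.4% and Ube2l3 50.8%. Genes low in progenitors thus occur in both kinds.

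Matches differed between these promoters. Psmc2 and Psmc1, which had different expression patterns, each had 1 CCAAT and 1 ETS match. Ube2l3 had 1 CCAAT match and Ube2k had none of the 4 motifs in this window. Ube2j1 had 2 matches to the antioxidant response element, of which the one 69 to 61 bases before the start overlaps its match to the unfolded protein response element. That last motif was in 98 of 17491 protein-coding promoters (0.560%). A window was found for 69 of the 82 members. The antioxidant response element was in 5 of 41 proteasome promoters (12.2%) and 3 of 28 Ube2 promoters (10.7%), against 10.5% of protein-coding promoters. CCAAT was in 16 of 41 (39.0%) and 8 of 28 (28.6%), against 36.5%. The ETS site was in 12 of 41 (29.3%) and 5 of 28 (17.9%), against 9.14%. These matches describe letters only, and binding was not measured.

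Progenitors differed from mature mast cells mainly through genes that were lower in progenitors. This direction was not particular to the members, since over all genes 185 were at least 4-fold lower and 25 higher. The progenitor array also had fewer genes above a log2 level of 8, with 619 against 788 in mature cells and 811 in lymphoid cells. Of the 82 genes, 5 were at least 4-fold lower (6.10%), against a background of 0.834% of all genes. With probe sets of a gene averaged, 2 were (2.44%), Psmc1 and Ube2k, against 0.726%. At least 4-fold higher were 0, where the background of 0.113% is too small for that count to say anything about the members. At 2-fold, 7 were lower (background 1.93%) and 1 was higher (background 0.509%). The median difference was 0 in each family, as it was over all genes.

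Progenitors differed from innate lymphoid cells in the same direction, again as over all genes. There 4 of the 82 genes (4.88%) were 4-fold lower or more in progenitors (background 0.888%) and 0 were higher (background 0.207%). At 2-fold, 10 were lower (background 1.88%) and 1 was higher (background 0.766%). Both comparisons share the progenitor array, so they are not independent.

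Mature mast cells and innate lymphoid cells differed in both directions. In mature cells 2 of the 82 genes were at least 4-fold higher (background 0.573%) and 1 was lower (background 0.401%). At 2-fold, 3 were higher (background 1.34%) and 4 were lower (background 1.26%).

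Levels were lowest in progenitors, intermediate in mature cells and highest in lymphoid cells in 10 of 49 proteasome genes (20.4%) and 4 of 33 Ube2 genes (12.1%), against 3.05% of all genes. That background is low for these families, whose members were more often bright and less often tied than genes at large. Counting only genes whose levels averaged at least 8, this order held in 176 of 693 (25.4%). Among members that bright, it held in 7 of 9. That mean is taken over the same levels, so these counts do not set brightness apart from the order. For example, Ube2k and Ube2l3 were at 5.70 and 4.87 in progenitors and reached that mean through the other arrays. The opposite order was found in 2 of the 82 genes, Psme2 and Ube2u, against 4.58% of all genes. For most of these genes the steps between neighbouring arrays were under 2-fold, and no error is known for them. In Psma3 the mature and lymphoid levels were equal to the decimals printed here.

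Among the α subunits, Psma6, Psma7 and Psma3 were past 2-fold, each lower in progenitors. Psma6 had log2 levels of 8.86 in progenitors, 9.76 in mature cells and 10.62 in lymphoid cells. Its level in progenitors was 3.39-fold below that in innate lymphoid cells, the largest difference of a member that did not reach 4-fold in that comparison. Psma7 had levels of 8.02, 8.60 and 9.08 in the same order and was 2.09-fold lower in progenitors than in innate lymphoid cells. Psma3 was at 6.70 in progenitors and 7.81 in both other populations, 2.15-fold lower in progenitors in each comparison. Of these, Psma6 and Psma7 were brightest in lymphoid cells. Psma1 had the same order at 5.63, 6.30 and 6.46, without reaching 2-fold. Psma2 was brightest in mature mast cells, at 7.08 against 6.75 in both others. Psma5 at 5.25 and Psma8, a testis form, at 5.78 were below the median and tied on all arrays.

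The standard β subunits were closer to each other across the arrays, apart from Psmb7 and Psmb4. Psmb7, which carries the trypsin-like site, was at 6.54 in both mast cell populations and 7.65 in innate lymphoid cells, which is 2.15-fold lower in mast cells. Psmb4, a structural β subunit, had levels of 6.95 in progenitors, 7.92 in mature cells and 7.45 in lymphoid cells. Those 2 genes had different brightest populations. Psmb5, with the chymotrypsin-like site, was at 7.91, 7.91 and 8.02. Psmb6, with the caspase-like site, was at 7.10, 6.69 and 6.82, brightest in progenitors. The structural subunits Psmb1 and Psmb3 were at 8.15, 8.17 and 8.17 and at 7.66, 7.39 and 7.39. Psmb2 ran between 6.28 and 6.53. Of the 13 measured standard core subunits, which leaves out Psma8, 0 reached 4-fold in any comparison, and 4 were lower in progenitors than in lymphoid cells by 2-fold or more. None was higher in progenitors by that much.

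Among the interferon-inducible β subunits, Psmb9 and Psmb8 were brightest in innate lymphoid cells. Psmb9, which takes the place of Psmb6, had levels of 7.47 in progenitors, 8.0 in mature cells and 8.63 in lymphoid cells. The lymphoid level was 2.23-fold above that in progenitors, the only difference of an inducible subunit past 2-fold. Psmb8, which takes the place of Psmb5, was at 7.03, 7.05 and 7.69. Psmb10, which takes the place of Psmb7, was at 7.56, 7.69 and 7.59, so its levels lay within 0.13 of each other. The standard partner of Psmb9 did not share its order, since Psmb6 was dimmer in innate lymphoid cells than in progenitors. Conversely, Psmb7 was past 2-fold where its replacement Psmb10 was not. Psmb11, a subunit of thymic epithelium, was at 6.63 on all arrays.

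The activators were measured with the same cells. Psme1, a subunit of the interferon-induced cap, had levels of 8.27 in progenitors, 8.52 in mature cells and 8.87 in lymphoid cells. Its partner subunit Psme2 ran the other way, at 7.23, 7.15 and 7.01. Neither gene reached 2-fold. Psme3, which encodes the nuclear activator, was at 6.32 and Psme4, which encodes a single-chain activator, at 5.66, each tied on all arrays. Psmf1, which encodes a proteasome inhibitor, was tied at 7.10.

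**Figure D2:**
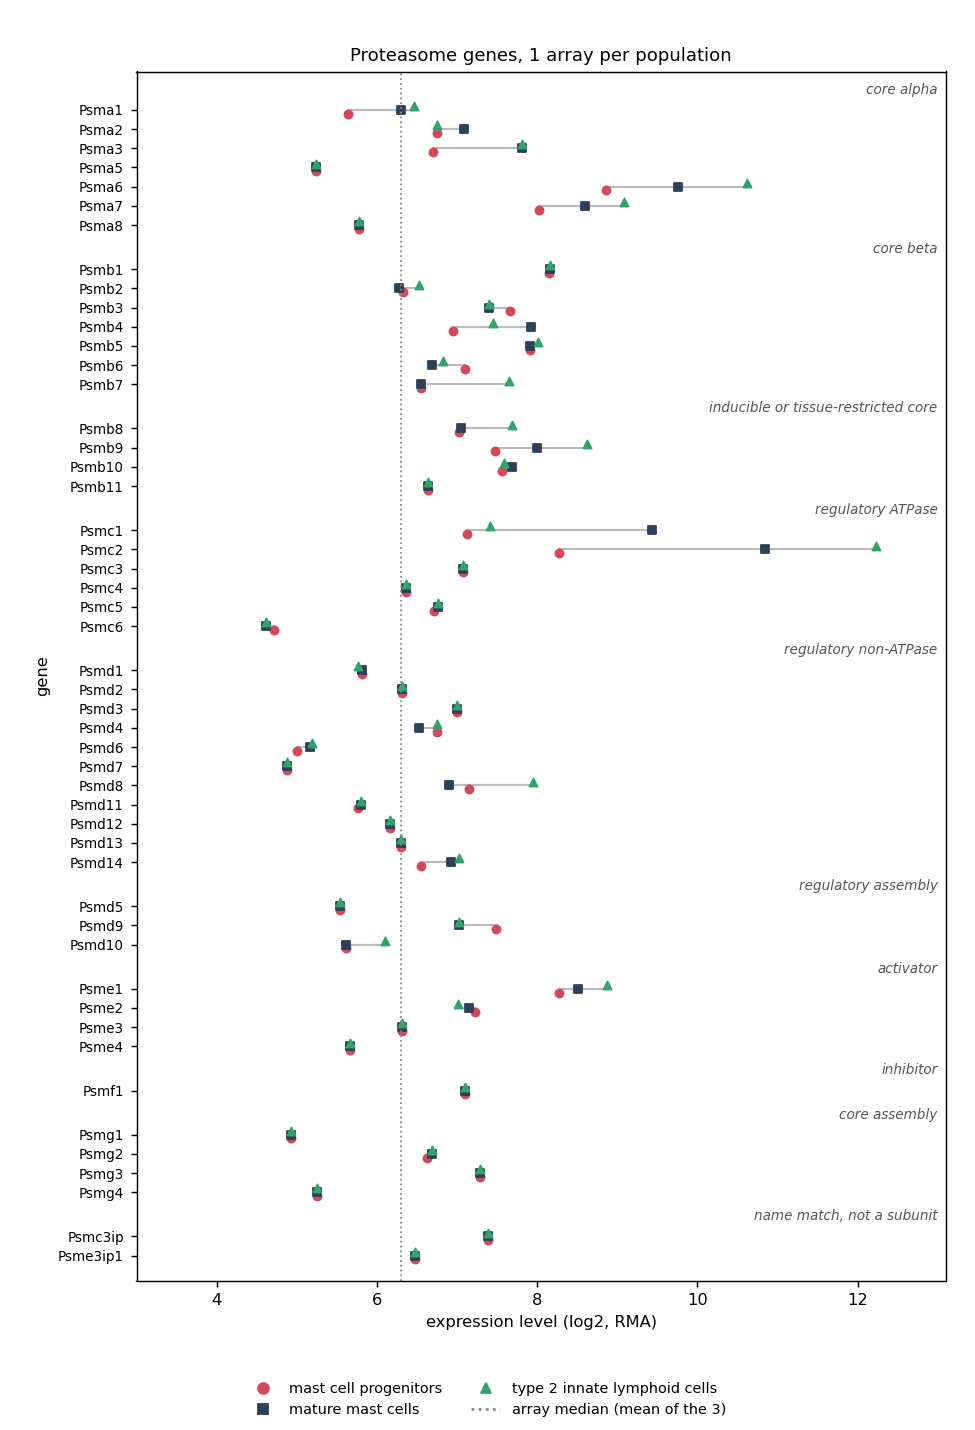
Log2 level (horizontal axis) of each of the 49 proteasome genes (vertical axis, grouped by role) on the progenitor (circle), mature mast cell (square) and innate lymphoid (triangle) array, with 1 array per population and no error bars. Markers of 1 gene are offset vertically so that ties can be seen, and the dotted line is the mean of the array medians. Psmc2 and Psmc1 have the widest spans, and most other genes have overlapping markers.

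Of the regulatory ATPases, Psmc2 and Psmc1 differed by more than 4-fold and the other 4 hardly differed. Psmc2, the brightest proteasome gene by mean level, had levels of 8.27 in progenitors, 10.84 in mature cells and 12.23 in lymphoid cells. Progenitors were 5.96-fold below mature mast cells and 15.6-fold below innate lymphoid cells, and mature mast cells were 2.62-fold below innate lymphoid cells. All 3 populations were therefore apart by more than 2-fold. Psmc2 has a second, dimmer probe set, at 5.88 in both mast cell populations and 6.68 in innate lymphoid cells. It shares the highest population but not the difference between the mast cell populations.

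Psmc1, another ATPase of the same ring, had a different pattern. It had levels of 7.12 in progenitors, 9.43 in mature cells and 7.41 in lymphoid cells. Mature mast cells were 4.97-fold above progenitors and 4.07-fold above innate lymphoid cells, the latter just inside the size rule. With quantile normalization across the arrays that second difference was 1.96 on the log2 scale, just short of it. The remaining ATPase genes ranged little. Psmc3 at 7.08 and Psmc4 at 6.37 were tied on all arrays, Psmc5 ran from 6.71 to 6.76, and Psmc6 was dim at 4.61 to 4.71.

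The other 11 subunits of the regulatory particle contained 1 gene past 2-fold. Psmd8, a lid subunit, had levels of 7.15 in progenitors, 6.90 in mature cells and 7.95 in lymphoid cells, 2.07-fold lower in mature mast cells than in lymphoid cells. Psmd14, the deubiquitinase of the lid, was at 6.54, 6.92 and 7.02. Psmd4, a ubiquitin receptor, was at 6.75, 6.53 and 6.75. The differences of these last genes were under 2-fold. Of the 11 genes 5 were tied on all arrays, among them Psmd2, a scaffold subunit, at 6.32 and Psmd3 at 7.0. Psmd1, Psmd6, Psmd7, Psmd11, Psmd12 and Psmd13 did not exceed the median on any array.

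The assembly chaperones named Psmd and Psmg did not separate the populations by 2-fold, unlike the core maturation factor Pomp, which is described with the other pathway genes. Psmd9, an assembly chaperone of the ATPase ring, was brightest in progenitors at 7.49 against 7.02 in both others. Psmd10, another such chaperone, was at 5.62 in both mast cell populations and 6.10 in innate lymphoid cells, below the medians. Psmd5 was tied at 5.55. Of the core assembly chaperones, Psmg1, Psmg3 and Psmg4 were tied at 4.93, 7.29 and 5.25, and Psmg2 was at 6.62 in progenitors and 6.69 in the others.

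In the Ube2 family, 4 of 33 genes (12.1%) passed 4-fold in some comparison, against 1.72% of all genes. With probe sets of a gene averaged, 2 did (6.06%), Ube2k and Ube2j1, against 1.54%. Of the 49 proteasome genes 2 did in both settings (4.08%), Psmc1 and Psmc2. Ube2k encodes a conjugating enzyme that builds ubiquitin chains on its own. It had levels of 5.70 in progenitors, 9.28 in mature cells and 9.75 in lymphoid cells. The progenitor level lay below its array's median, so mature mast cells were at least 7.82-fold and innate lymphoid cells at least 10.8-fold above it. Ube2k has 1 probe set here. The mature and lymphoid levels were within 2-fold of each other.

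Ube2l3 encodes an enzyme that works with ligases such as Parkin and the linear ubiquitin chain complex. By its brightest probe set it had levels of 4.87 in progenitors, 9.47 in mature cells and 10.33 in lymphoid cells. Mature mast cells were at least 8.88-fold and innate lymphoid cells at least 16.1-fold above progenitors by that probe set. Its other probe sets did not share this. One was at 7.27 on all arrays, and the remaining one was at 6.78 in progenitors and 6.42 in both others. With the mean of all 3 probe sets the differences were -1.41 and -1.70, past 2-fold but not 4-fold. The reference table also names a pseudogene, Ube2l3-ps1, and which transcripts each probe set binds was not tested.

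Ube2d2a belongs to the Ube2d enzymes, which serve many ligases. It had levels of 7.68 in progenitors, 10.24 in mature cells and 7.19 in lymphoid cells. Mature mast cells were 5.88-fold above progenitors and 8.29-fold above innate lymphoid cells. All 3 of its probe sets were brightest in mature mast cells. The second was at 7.46, 8.61 and 7.46 and the third at 6.47, 8.76 and 7.23, so each differed by at least 2-fold from both other populations. With the mean of the probe sets the difference between the mast cell populations fell just short of 4-fold, and that between mature and lymphoid cells was 1.91 on the log2 scale.

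Its relatives did not all follow it. Ube2d3 had levels of 6.24 in progenitors, 7.73 in mature cells and 7.34 in lymphoid cells, and progenitors were at least 2.67-fold and at least 2.04-fold below the others. Ube2d1 was at 7.78, 7.88 and 7.97, and Ube2d2b at 6.88, 6.82 and 6.82. The Ube2d genes have closely similar sequences, so signal from one may reach probes of another, and this was not tested. Ube2dnl1, a gene of the X chromosome, was the only member at least 2-fold higher in progenitors, at 6.76 against 5.61 in both others. The others were below the array median, and over that median the fold was at least 1.37 in each comparison. Ube2dnl2 was dim, between 3.24 and 3.74. Ube2e3 was tied at 7.42 and Ube2e2 at 5.80.

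Ube2j1 encodes an enzyme anchored in the membrane of the endoplasmic reticulum, where it acts in the removal of misfolded proteins. It had levels of 6.41 in progenitors, 6.40 in mature cells and 9.10 in lymphoid cells. The lymphoid level was 6.47-fold above progenitors and 6.50-fold above mature mast cells, and the mast cell levels were nearly equal. Its promoter is the one printed with the overlapping antioxidant and unfolded protein response matches. The related Ube2j2, at 5.96, 5.96 and 5.98, and Ube2g1, which acts in the same process, at 6.0, 6.10 and 6.10, were below the medians and did not share this difference.

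**Figure D3:**
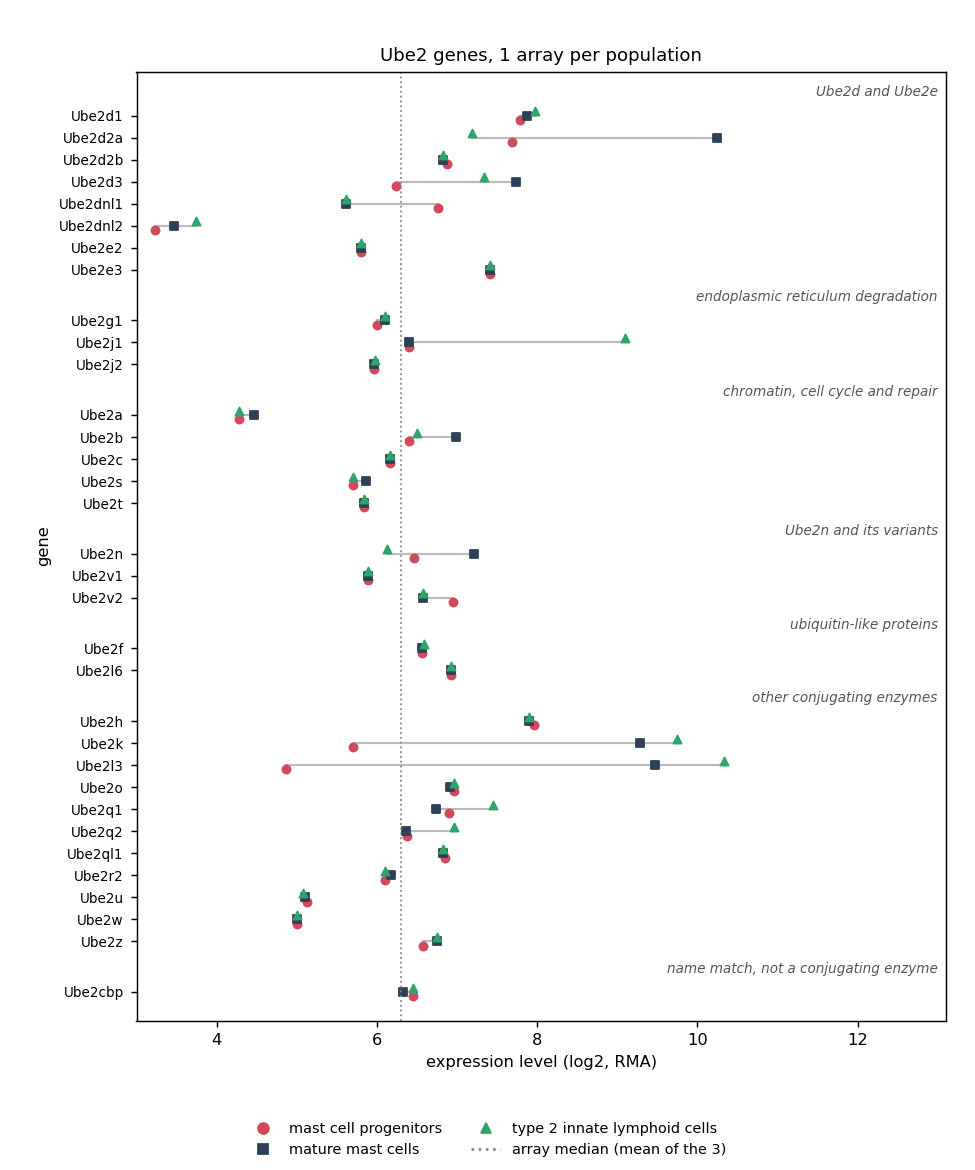
Log2 level (horizontal axis) of each of the 33 Ube2 genes (vertical axis, grouped by role) on the progenitor (circle), mature mast cell (square) and innate lymphoid (triangle) array, with 1 array per population and no error bars. Markers are offset vertically and the dotted line is the mean of the array medians. Ube2l3 and Ube2k are far to the left in progenitors, Ube2d2a is to the right in mature mast cells and Ube2j1 in innate lymphoid cells.

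Ube2n, which with a variant partner builds chains that signal rather than direct degradation, was brightest in mature mast cells. It had levels of 6.46 in progenitors, 7.21 in mature cells and 6.13 in lymphoid cells. Against the lymphoid array the measured difference was 1.09 on the log2 scale, or at least 1.88-fold over that array's median. Its partners were not brightest there, with Ube2v1 tied at 5.89 and Ube2v2 at 6.95 in progenitors and 6.57 in the others.

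Enzymes of ubiquitin-like proteins did not separate the populations. Ube2l6, the conjugating enzyme of the interferon-induced protein ISG15, was tied at 6.92, and Ube2f, an enzyme for NEDD8, was at 6.57, 6.57 and 6.58. Enzymes of chromatin, cell division and repair were mostly dim. Ube2b, which modifies chromatin, had levels of 6.41 in progenitors, 6.98 in mature cells and 6.50 in lymphoid cells. The mitotic enzymes Ube2c and Ube2s and the repair enzyme Ube2t were between 5.70 and 6.16, below the medians on all arrays. Ube2a was at 4.28, 4.46 and 4.28.

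Of the remaining enzymes, Ube2q1 and Ube2q2 were brightest in innate lymphoid cells without reaching 2-fold. Ube2q1 was at 6.90, 6.74 and 7.45, and Ube2q2 at 6.38, 6.37 and 6.96. Ube2h was at 7.96, 7.90 and 7.90 by its brighter probe set. Its dimmer probe set had levels of 5.60 in progenitors, 5.85 in mature cells and 7.92 in lymphoid cells, with measured differences of -2.32 (progenitors minus lymphoid) and -2.07 (mature minus lymphoid). Both mast cell levels lay below the array medians, so the lymphoid level was at least 3.03-fold and at least 3.07-fold above them. Since the brighter probe set stands for the gene, Ube2h is not among the counted genes. Ube2o, Ube2ql1, Ube2r2, Ube2u, Ube2w and Ube2z each varied by less than 0.2.

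**Figure D4:**
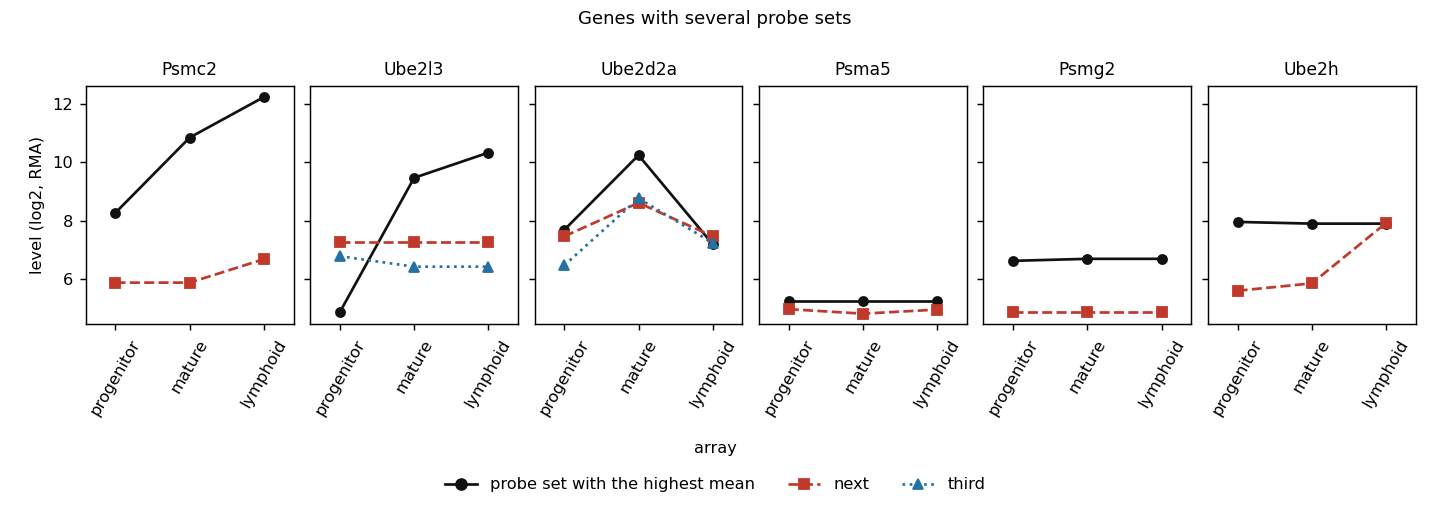
Log2 level (vertical axis) on each array (horizontal axis) for every probe set of the 6 member genes that have several, with lines joining the values of 1 probe set and no error bars. The probe sets of Ube2d2a are all highest in mature mast cells, whereas those of Ube2l3 and Ube2h disagree.

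Other genes of the pathway were read from a list of 30, of which 19 were measured. One of them, Pomp, passed 4-fold. Pomp encodes the maturation protein that guides assembly of the core, and it had levels of 5.65 in progenitors, 5.12 in mature cells and 10.43 in lymphoid cells. Both mast cell levels lay below the median, and innate lymphoid cells were at least 17.3-fold above progenitors and at least 17.5-fold above mature mast cells. None of the remaining 18 reached 2-fold. Sem1, a small lid subunit, was at 8.0 in both mast cell populations and 8.96 in innate lymphoid cells. Uchl5, a deubiquitinase of the regulatory particle, was at 6.11, 6.52 and 7.09. Both genes were brightest in innate lymphoid cells. Vcp, the ATPase that extracts tagged proteins, was at 9.31, 9.28 and 9.28.

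Genes upstream in the pathway were flat by comparison. Nfe2l1, a transcription factor of proteasome genes, was tied at 7.42 and Nfe2l2, of the antioxidant response, at 6.41. Of 5 measured activating enzymes, Sae1, for SUMO, was tied at 7.70, Uba6 was tied at 6.22 and Uba7, for ISG15, was at 6.66 in progenitors and 6.75 in the others. Uba3 and Nae1, which form the NEDD8-activating enzyme, were below 6.30 on all arrays. Cdc34, a conjugating enzyme of cullin ligases, was at 7.11, 7.11 and 6.92. Uba1 and Ubb were not analysed here.

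**Figure D5:**
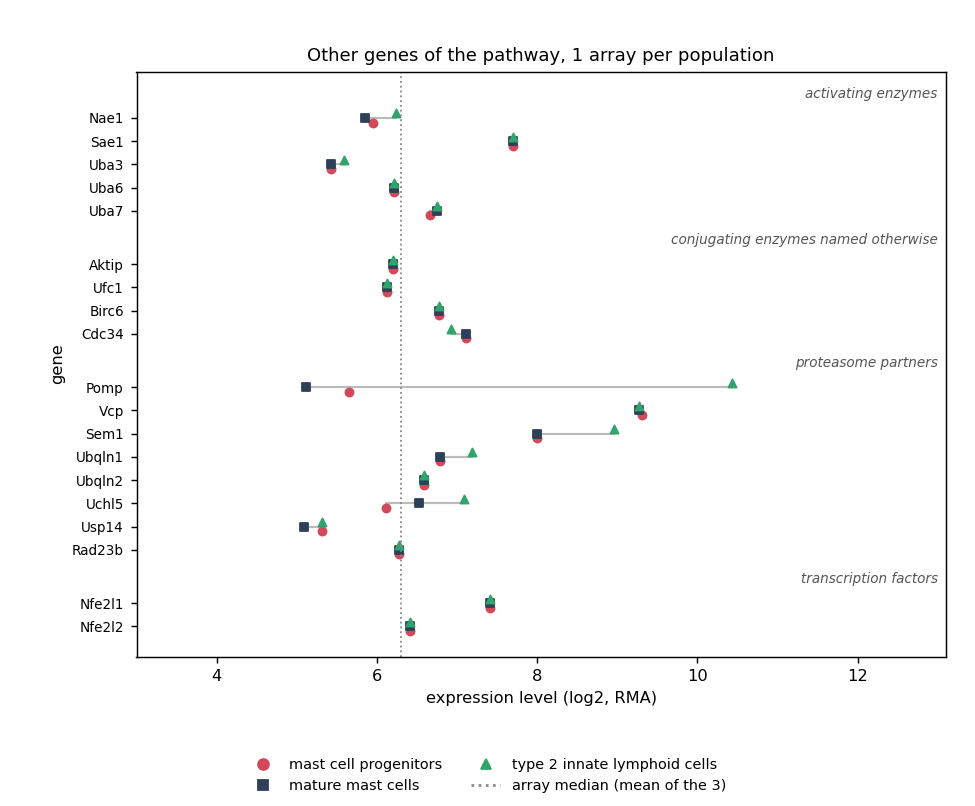
Log2 level (horizontal axis) of the 19 measured pathway genes outside both families (vertical axis, grouped by role) on the progenitor (circle), mature mast cell (square) and innate lymphoid (triangle) array, with 1 array per population and no error bars. The dotted line is the mean of the array medians. Pomp stands at 10.43 in innate lymphoid cells and below 6 in both mast cell populations.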

How the data were processed

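Whole-transcript cDNA amplified from 100 sorted cells was hybridised to 1 array per population, per the labels' protocols. The deposited values are log2 levels of 41345 probe sets, which the submitters' processing notes say the authors summarised with RMA; its version and the genome build are not given in the sources used here. Amplification from few cells can lose transcripts, and precision is limited by the small number of arrays.

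Of the probe sets, 23521 name 1 gene in the platform's annotation, 1814 several and 16010 none. For each gene the brightest 1-gene probe set by mean was taken, and all 82 members matched RefSeq by Entrez identifier. Differences of log2 levels were counted at 2 (4-fold) and 1 (2-fold) with the floor at the array median, by code tested on simulated data. Members past 2-fold, the 5 brightest of each family, inducible subunits with their counterparts, activators and enzymes of ubiquitin-like proteins were to be described with all levels, and Pomp, Ubb, Uba1 and changed genes of the pathway list; other genes were named after their values were seen. The members and lists were chosen with earlier results of these data known. Alternatives were omitting the floor or raising it to the 75th percentile, median scaling, quantile normalization, averaging probe sets and, for medians, brighter members alone. Promoter windows that overlap on opposite strands were checked to be reverse complements (1839 of 1839). Python 3.11.15, pandas 2.3.3 and numpy 2.4.6 were used.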

Additional observations from a re-analysis of the deposited data

How the results depend on the processing

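Across the alternatives, 80 of 84 summary values (counts past 4-fold and 2-fold and medians, for each family and comparison) stayed within 1.5 times the count, or within 0.1 of the median. Many of these could hardly have moved, so that number does not measure robustness. With median scaling the median over all genes was -0.018 for progenitors minus mature cells, and the other comparisons moved less. Omitting the floor cannot lower a count. With the mean over probe sets, which by construction dilutes genes whose probe sets disagree, 1 proteasome gene was past 4-fold between progenitors and mature mast cells in place of 2, 1 Ube2 gene in place of 3, and 1 Ube2 gene between mature mast cells and innate lymphoid cells in place of 2. With quantile normalization 0 proteasome genes were past 4-fold between mature mast cells and innate lymphoid cells in place of 1. Of 60 values for single genes past 4-fold, 54 stayed past it, 6 fell short and 0 changed direction. Many could not have fallen short. Omitting the floor cannot remove a call, and averaging cannot alter Psmc1, Ube2k or Ube2j1, which have 1 probe set each. Among the genes with several probe sets, only Psmc2 between progenitors and lymphoid cells (-2.38) stayed past 4-fold on averaging. Between the mast cell populations, those falling short with the mean over probe sets were Psmc2 (-1.29 on the log2 scale), Ube2l3 (-1.41) and, by a small margin, Ube2d2a. Against lymphoid cells they were Ube2l3 in progenitors (-1.70) and Ube2d2a in mature cells (1.91). Over both families together, 2 genes in place of 5 were lower by 4-fold in progenitors against mature cells with that mean. Psmc1 (1.96) fell short with quantile normalization. No paired analysis was possible because each population has 1 array, and for the same reason no array could be left out. No background level was used here, so whether dim members exceeded it was not tested.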
